A study of Mus musculus with 12 samples.

Results

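The genes described here are 9 genes of the citrate cycle: Cs, Idh3a, Idh3b, Idh3g, Ogdh, Dlst, Suclg1, Fh1 and Mdh2. They were chosen by name, with earlier results of these data known. Every probe whose RefSeq accession matched one of them was read, which gave 11 probes. The array carried 20660 genes named in this way, of which 14710 had a probe that passed the filter on dim signal, among them all 9 enzymes. RNA of subcutaneous white adipose tissue (scWAT) and brown adipose tissue (BAT) was hybridised to single-colour Agilent mouse arrays, 3 in each of 4 groups, formed by genotype (WT or Lr11 -/-) and tissue. All mice were C57Bl6/J males aged 12 weeks on a high-fat diet (HFD) with 60% of calories from fat. The labels give 4 weeks of HFD and also HFD since weaning, so its length is uncertain. Lr11 -/- mice lack the receptor LR11 (gene Sorl1), with no restriction to a tissue named, and WT mice were their littermates. Nothing in the labels says whether scWAT and BAT came from the same animals or whether arrays were separate animals, so p-values measure the spread between samples only.

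The citrate cycle takes place in the mitochondrial matrix and oxidises the acetyl group of acetyl-CoA to carbon dioxide. The electrons pass to NAD+ and FAD and from there to the respiratory chain. Brown adipocytes are packed with mitochondria and oxidise fatty acids to produce heat through uncoupling protein 1 (Ucp1), whereas white adipocytes hold few mitochondria and mainly store triglyceride.

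As the enzymes are nuclear genes whose transcripts moved together on these arrays, the stretches around their transcription start were searched for the motifs of regulators of mitochondrial genes. RefSeq windows of assembly GRCm38.p6, from 250 bases before to 50 bases after the start, were given for 8 of the 9 genes, with 6 windows for Ogdh. Idh3a had no window. A gene was counted if any of its windows held a motif, so Ogdh had more room for a match than a gene with 1 window. CCGGAAG, the motif of GABP and other ETS factors, was found in 3 of the 8 genes and in 9.93% of all 27025 genes with a window. TGACGTCA, the cAMP response element (CRE), was found in 2 of the 8 and in 2.03% of all genes. The matches are printed with 10 bases on either side, 5′ to 3′ on the strand of the gene, to show where in these promoters the letters lie. Capitals mark the motif, which reads CTTCCGG where it lies on the opposite strand.
Idh3b, ETS, chr2:130284440-130284466, minus strand: accgcgctcgCTTCCGGcgtcacttcc
Idh3g, ETS, chrX:73786985-73787011, minus strand: gctctaggcaCCGGAAGggggcgtaag
Dlst, ETS, chr12:85110824-85110850, plus strand: gccggtctcaCTTCCGGttgctgccgg
Ogdh, CRE, chr11:6291536-6291563, plus strand: cccaattctgTGACGTCAcgtcacgccc
Mdh2, CRE, chr5:135778512-135778539, plus strand: gagagaatcgTGACGTCAggcctcgctc
Counted from the start, with -1 as the base before it, the motif of Idh3g lay at -104 to -98 and that of Mdh2 at -127 to -120. The motif of Idh3b spanned the start and that of Dlst lay at 2 to 8. The CRE of Ogdh lay at -51 to -44 from 1 of its starts.

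The other motifs were searched on both strands in the same windows. TNAAGGTCA, the element bound by the oestrogen-related receptors (ERR), was in 0 of the 8 genes and in 1.43% of all genes. Its shorter form AAGGTCA, which every full element also contains, was in 1 of the 8 (Ogdh) and in 5.38% of all genes. GCGCATGCG, the core of the NRF1 site, was likewise in Ogdh alone and in 1.95% of all genes. The GC box GGGCGG was in 5 of the 8 (Cs, Ogdh, Dlst, Fh1 and Mdh2) and in 38.2% of all genes. A match describes letters in a window and is no measure of binding.

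Values are log2 intensities minus the 75th percentile of the array, so that a probe with a value of 0 is as bright as that percentile. On each array 32377 to 37002 of 59305 spots were above background by the software's stricter criterion (well above background), and 0 were saturated. All 11 probes of the enzymes were well above background on all 12 arrays. Sorl1 read 0.91, 0.96 and 1.15 in WT scWAT, 0.71, 1.21 and 0.11 in WT BAT, -3.57, -3.56 and -2.87 in Lr11 -/- scWAT and -3.93, -2.45 and -2.48 in Lr11 -/- BAT, so every array fitted its genotype label. Replicate 1 of each group belonged to a first array series and replicates 2 and 3 to a second one on a slide of its own. The first-series scWAT and BAT arrays were on 2 other slides.

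Several arrays stood apart before any enzyme was considered. On WT scWAT replicate 2 the mean of 5 general adipocyte genes was 4.97, against 6.80 to 8.32 on the other 11 arrays, and the mean of 5 macrophage genes was 2.83, the highest of the 12. On Lr11 -/- scWAT replicates 2 and 3 all tested probes correlated at a mean of 0.97 with the BAT arrays. With the other scWAT arrays their means were 0.921 and 0.918, which include the r of 0.989 between these replicates. For Lr11 -/- scWAT replicate 1 the means were 0.929 with BAT and 0.921 with the other scWAT arrays. On replicates 2 and 3 Hoxc9, a positional gene of posterior fat depots, read 2.36 and 2.13, within the 1.08 to 3.02 of the other scWAT arrays. It was not well above background on any BAT array (-6.87 to -5.79). Mest, a white adipocyte gene, read -0.25 and 0.12 on them, below the 1.15 to 7.04 of the other scWAT arrays. Its range on the BAT arrays was -2.31 to 0.14. The mean of 6 white adipocyte genes, Hoxc9 and Mest among them, was 1.46 and 1.92, against -1.39 to 0 in BAT. Hoxc9 made up the largest part of this gap. Retn (5.85 and 6.22) and Hoxc8 (-2.17 and -1.81) were also above all BAT arrays, which reached 5.19 and -2.87. Lep (1.12 and 1.55) lay within its BAT range of -1.01 to 2.22. Nnat (1.83 and 3.31) lay in or just above its BAT range of 1.55 to 3.27. The source of these differences was not tested. A list of 12 skeletal muscle genes had a mean of 5.16 to 8.21 on 5 arrays (WT scWAT replicate 3, Lr11 -/- scWAT replicate 1, WT BAT replicates 1 and 3 and Lr11 -/- BAT replicate 1) and of -3.90 to -2.96 on the other 7. Counts that rest on these arrays are given with and without them.

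All 9 enzymes were higher in BAT than in scWAT of WT mice, by 2.04 to 4.01 on the log2 scale. In scWAT the mean of Lr11 -/- mice exceeded that of WT mice for all 9, by 1.75 to 3.31, and 5 passed the test. In BAT the genotypes differed by 0.05 to 0.34 and 0 of 9 passed. Tests were made with limma over 32121 probes, with 1 mean per group, a spread shared by the 4 groups and Benjamini-Hochberg adjustment over all tested probes. In bulk tissue, fewer cells of a type and less RNA per cell cannot be told apart. The arrays of each gene are described in the order of the cycle, and the plot of values by array shows them together.

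**Figure D1:**
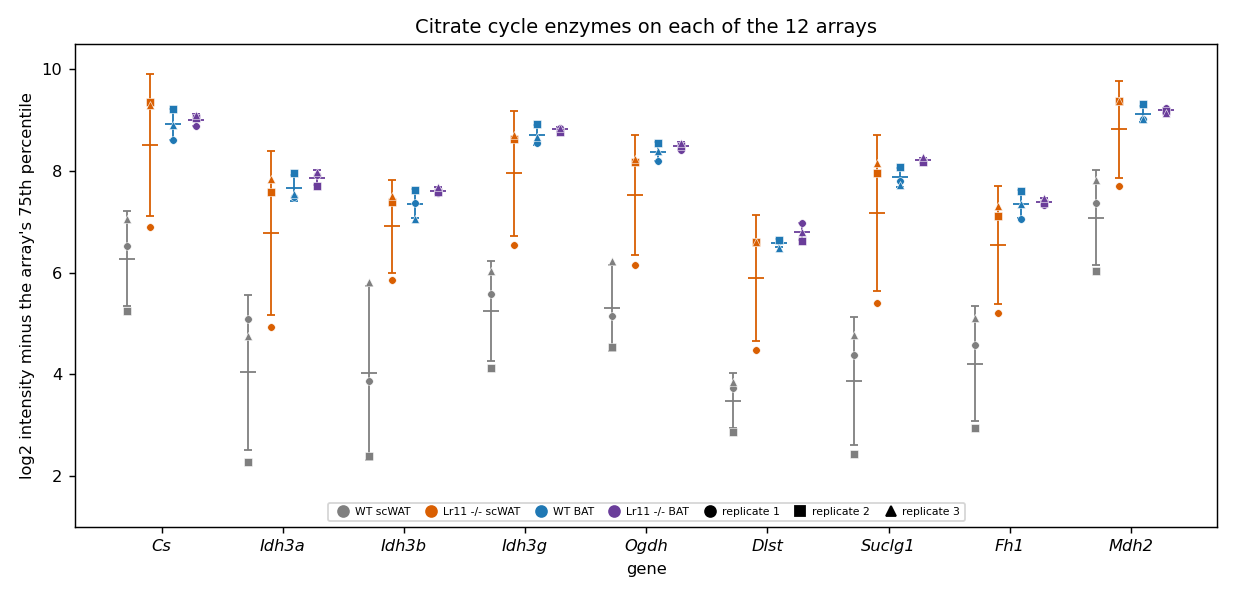
Scaled log2 intensity of each enzyme (x axis) on each array (points, shaped by replicate), coloured by group, with the group mean (dash) and SD (bars, n = 3). The BAT arrays lie close together, WT scWAT replicate 2 is the lowest array for all 9 genes, and Lr11 -/- scWAT replicates 2 and 3 lie at the level of BAT while replicate 1 lies near WT scWAT.

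Citrate synthase (Cs) joins acetyl-CoA to oxaloacetate and so admits carbon to the cycle. In scWAT it read 6.53, 5.24 and 7.05 on WT replicates 1 to 3 and 6.89, 9.35 and 9.29 on Lr11 -/- replicates 1 to 3. In BAT its values were 8.62, 9.22 and 8.91 for WT, then 8.88, 9.04 and 9.10 for Lr11 -/-. Lr11 -/- scWAT replicates 2 and 3 were thus above all 6 BAT arrays, and replicate 1 lay below the highest WT scWAT array. Cs was 6.24-fold higher in WT BAT than in WT scWAT (log2 2.64, SE 0.63, adjusted p = 0.015 from limma). The scWAT genotypes overlapped, and the difference of 2.24 (SE 0.63) did not pass the test (adjusted p = 0.061 from limma).

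NAD-dependent isocitrate dehydrogenase carries out an oxidative decarboxylation that is held to be a main point of control, and it is built from the catalytic subunit Idh3a and the subunits Idh3b and Idh3g. Idh3a in scWAT read 5.08, 2.28 and 4.75 on the WT arrays and 4.93, 7.58 and 7.85 on the Lr11 -/- arrays. In BAT Idh3a read 7.48, 7.97 and 7.55 in WT and 7.92, 7.70 and 7.98 in Lr11 -/-. For this subunit Lr11 -/- scWAT replicate 1 was below WT replicate 1, so the scWAT genotypes overlapped.

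For Idh3b the scWAT arrays read 3.86, 2.40 and 5.81 in WT and 5.86, 7.39 and 7.50 in Lr11 -/-. Its BAT arrays read 7.38, 7.63 and 7.06 in WT and 7.57, 7.58 and 7.69 in Lr11 -/-. Here the scWAT genotypes did not overlap, but WT replicate 3 and Lr11 -/- replicate 1 were only 0.05 apart. For Idh3g the scWAT arrays read 5.58, 4.13 and 6.03 in WT and 6.54, 8.63 and 8.71 in Lr11 -/-. Idh3g in BAT read 8.55, 8.93 and 8.66 in WT and 8.85, 8.76 and 8.85 in Lr11 -/-. Again the scWAT genotypes did not overlap.

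The 3 subunits were all higher in WT BAT, and 2 of them passed between the scWAT genotypes. WT BAT exceeded WT scWAT by 3.63 for Idh3a (adjusted p = 0.012 from limma), by 3.33 for Idh3b (0.010) and by 3.47 for Idh3g (0.0047). Lr11 -/- scWAT exceeded WT scWAT by 2.90 for Idh3b (SE 0.71, adjusted p = 0.047 from limma) and by 2.71 for Idh3g (SE 0.59, adjusted p = 0.040). Idh3a differed by 2.75 (SE 0.81), which did not pass the test (adjusted p = 0.069 from limma).

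The α-ketoglutarate dehydrogenase complex forms succinyl-CoA, with Ogdh as its decarboxylating subunit and Dlst as its succinyl-transferring core. Ogdh had 3 probes and was read from the brightest. On that probe scWAT read 5.15, 4.54 and 6.22 in WT and 6.16, 8.18 and 8.23 in Lr11 -/-. BAT read 8.20, 8.56 and 8.39 in WT and 8.42, 8.50 and 8.56 in Lr11 -/-. Ogdh was 8.45-fold higher in WT BAT than in WT scWAT (log2 3.08, SE 0.54, adjusted p = 0.0052 from limma). It was 4.66-fold higher in Lr11 -/- than in WT scWAT (log2 2.22, SE 0.54, adjusted p = 0.046 from limma), although Lr11 -/- replicate 1 lay below WT replicate 3.

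A second Ogdh probe gave 2.44 between the scWAT genotypes (adjusted p = 0.042 from limma) and 3.32 between the WT tissues (adjusted p = 0.0045). The third Ogdh probe, which the files list under the same accession, differed from both. Its scWAT values were 3.06, 2.69 and 1.96 for WT, then 2.89, 3.24 and 2.94 for Lr11 -/-. In BAT the values were 2.55, 2.80 and 3.20 for WT, then 2.88, 3.04 and 3.31 for Lr11 -/-. Its groups overlapped in every comparison, with 0.45 between the scWAT genotypes (adjusted p = 0.35 from limma) and 0.28 between the WT tissues (adjusted p = 0.51). What this probe measures was not tested.

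Dlst in scWAT read 3.74, 2.86 and 3.85 for WT, then 4.47, 6.61 and 6.60 for Lr11 -/-. In BAT, Dlst read 6.62, 6.64 and 6.49 for WT, then 6.97, 6.63 and 6.81 for Lr11 -/-. No array of one scWAT genotype reached the other, and Dlst had the lowest adjusted p of the 9 enzymes in both comparisons. It was 5.32-fold higher in Lr11 -/- scWAT (log2 2.41, SE 0.51, adjusted p = 0.038 from limma) and 8.59-fold higher in WT BAT (log2 3.10, SE 0.51, adjusted p = 0.0044), each against WT scWAT.

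Suclg1 encodes the subunit that both forms of succinyl-CoA ligase share, the enzyme that conserves energy as ATP or GTP. Its scWAT values were 4.38, 2.43 and 4.78 for WT, then 5.40, 7.96 and 8.15 for Lr11 -/-. Its BAT values were 7.81, 8.08 and 7.73 for WT, then 8.20, 8.17 and 8.27 for Lr11 -/-. In scWAT the highest WT array stayed below the lowest Lr11 -/- array. Of the 9 enzymes, Suclg1 had the largest difference in both comparisons against WT scWAT. These were 16.1-fold for WT BAT (log2 4.01, SE 0.72, adjusted p = 0.0057 from limma) and 9.89-fold for Lr11 -/- scWAT (log2 3.31, SE 0.72, adjusted p = 0.040). Suclg1 was also the 1 gene of the 9 whose BAT genotypes did not overlap, by 0.34 (SE 0.72, adjusted p = 1 from limma), where 12% of all probes did not overlap.

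Fumarase (Fh1) hydrates fumarate to malate. The scWAT arrays gave 4.58, 2.94 and 5.11 for WT, then 5.20, 7.12 and 7.31 for Lr11 -/-. The BAT arrays gave 7.06, 7.61 and 7.36 for WT, then 7.34, 7.38 and 7.47 for Lr11 -/-. The scWAT genotypes were separated by less than 0.1 between WT replicate 3 and Lr11 -/- replicate 1, and their difference of 2.33 (SE 0.60) did not pass the test (adjusted p = 0.051 from limma). WT BAT was 8.77-fold above WT scWAT (log2 3.13, SE 0.60, adjusted p = 0.0070 from limma).

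Mitochondrial malate dehydrogenase (Mdh2) regenerates oxaloacetate and also serves the malate-aspartate shuttle. In scWAT, Mdh2 read 7.37, 6.03 and 7.83 for WT, then 7.71, 9.37 and 9.38 for Lr11 -/-. In BAT, Mdh2 read 9.02, 9.31 and 9.03 for WT, then 9.24, 9.19 and 9.15 for Lr11 -/-. The high Lr11 -/- scWAT pair lay above all 6 BAT arrays. Mdh2 showed the smallest differences of the 9, with 4.12-fold between the WT tissues (log2 2.04, SE 0.50, adjusted p = 0.017 from limma). Between the scWAT genotypes, which overlapped, it differed by 1.75 (SE 0.50, adjusted p = 0.065 from limma).

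The enzymes therefore differed in how far they moved between the WT tissues. Relative to the mean of the other 8 enzymes on the same array, Suclg1 was 0.95 higher in WT BAT than in WT scWAT and Idh3a 0.53 higher, while Mdh2 was 1.26 lower and Cs 0.58 lower. For Idh3g (0.34 higher) and Mdh2 the 6 BAT arrays did not overlap the 6 scWAT arrays on this relative scale. Ogdh, Dlst and Fh1 shifted by less than 0.1 on this scale.

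Counted over the 9 enzymes, the comparison of WT BAT with WT scWAT called 9 higher, where 24.8% of all tested probes were called and 15.7% were called higher. The median difference was 3.13, against 0.068 over all tested probes. Among the 1209 tested probes at least as bright on average as the dimmest enzyme, 32.9% were called in this comparison. All 9 were without overlap between the groups, as were 40.2% of all probes. An exact permutation test of 3 arrays against 3 gives a two-sided p of 0.1 at the lowest, which it gave for all 9. The differences were 1.65 to 3.53 in the first array series, with 1 array per group, and 2.24 to 4.30 in the second. With slide as a block 6 of 9 were called, as Cs, Idh3a and Mdh2 then had adjusted p = 0.053 to 0.069 from limma. In that fit only the second series compares the tissues within a slide, as the first-series tissues were on different slides. Without WT BAT replicate 2 the count was 7 of 9, Cs (adjusted p = 0.058) and Mdh2 (0.063) being lost.

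**Figure D2:**
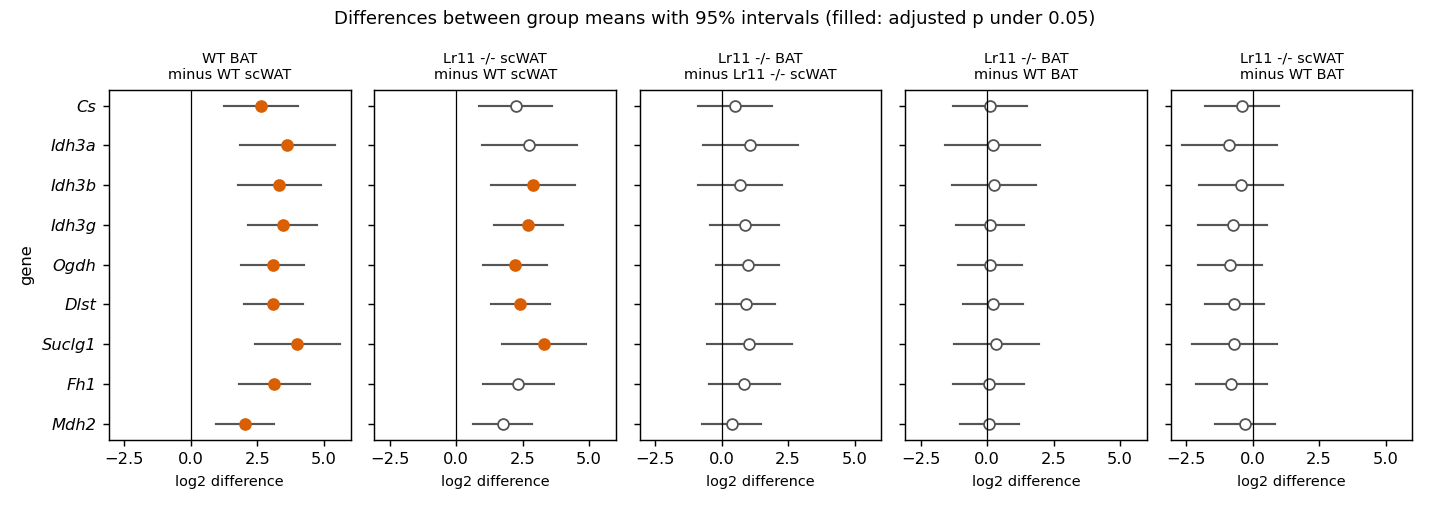
Log2 difference between group means (x axis) for each enzyme (y axis) with its 95% confidence interval from limma, in 5 comparisons, filled where the adjusted p was under 0.05. All 9 are filled for WT BAT minus WT scWAT, 5 for Lr11 -/- scWAT minus WT scWAT and 0 in the other 3 comparisons, whose intervals all include 0.

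In scWAT, 5 of the 9 enzymes (Idh3b, Idh3g, Ogdh, Dlst and Suclg1) rose in Lr11 -/- mice. Of all tested probes 5.27% were called and 3.4% were called higher. Among the 1209 tested probes at least as bright on average as the dimmest enzyme, 10.3% were called. The median over the 9 was 2.41, against 0.042 over all tested probes. The other 4 had adjusted p = 0.051 to 0.069 from limma, and all 9 had an unadjusted p under 0.05, as did 27.6% of all probes. The genotypes did not overlap for 5 of 9 (Idh3b, Idh3g, Dlst, Suclg1 and Fh1), as for 20.4% of all probes. The exact permutation test gave p = 0.1 for these 5 and p = 0.2 for Cs, Idh3a, Ogdh and Mdh2. Both this comparison and that of the WT tissues subtract the same 3 WT scWAT arrays.

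The scWAT calls depended on single arrays. Without WT scWAT replicate 2, or without Lr11 -/- scWAT replicate 2 or 3, 0 of 9 were called. Omitting WT scWAT replicate 3 gave 8 of 9, and omitting replicate 1 of Lr11 -/- scWAT gave 9 of 9. Leaving out any 1 of the 6 BAT arrays, which enter only the shared spread, also gave 0 of 9, as did a fit of the scWAT arrays alone. Without a BAT array the scWAT differences themselves stayed the same, and only the spread and the adjustment over all probes changed. The SD of the enzymes was 0.54 to 1.71 in WT scWAT and 0.92 to 1.61 in Lr11 -/- scWAT, but 0.08 to 0.30 in WT BAT and 0.04 to 0.17 in Lr11 -/- BAT. The shared spread is thus smaller than that of the scWAT arrays for these genes. With slide as a block 2 of 9 passed. For these and the other alternative fits the share of all probes called is not given here. Their counts thus do not show whether a change was particular to the enzymes.

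The 2 array series differed in the size of the scWAT difference. In the first series, with 1 array per genotype, the enzymes differed by -0.15 (Idh3a) to 2.01 (Idh3b), with a median of 0.74, and 8 of 9 were above 0. In the second series they differed by 2.45 (Mdh2) to 4.45 (Suclg1), with a median of 3.25. A fit of the second series alone called 8 of 9, all but Idh3b (adjusted p = 0.058 from limma).

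The Lr11 -/- scWAT arrays were of unequal level. On a scale that puts the WT scWAT mean of a gene at 0% and its WT BAT mean at 100%, replicate 2 stood at 92.8% (Fh1) to 117% (Cs) and replicate 3 at 95% (Ogdh) to 114% (Cs). Replicate 1 stood at 23.3% (Cs) to 55.2% (Idh3b), with a median of 31.7%, next to WT scWAT replicate 3 with a median of 28.8%. For 8 enzymes on replicate 2 and 9 on replicate 3 the value lay within or above the range of the 6 BAT arrays, and for 0 on replicate 1. WT scWAT replicate 2 was the lowest of the 12 arrays for all 9 enzymes.

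The brown adipocyte list followed the order of the enzymes over the scWAT arrays, and the white adipocyte list did not. The mean of 7 brown adipocyte genes was 0.07, -3.25 and 2.70 on the WT scWAT arrays, 3.50, 7.80 and 7.80 on the Lr11 -/- scWAT arrays and 6.75 to 7.69 on the BAT arrays. Among them, Ucp1 read -4.63, -4.52 and 2.92 in WT scWAT, then 4.39, 9.75 and 10.05 in Lr11 -/- scWAT, against 9.45 to 10.07 in BAT. On WT scWAT replicate 2 only 4 of the 7 brown genes were well above background, Ucp1 not among them, and on the other 11 arrays all 7 were. The white adipocyte list (6 genes) had means of 0.14 to 4.04 in WT scWAT, 1.46 to 1.92 in Lr11 -/- scWAT and -1.39 to 0 in BAT. The BAT means include Hoxc9, which was not well above background there. The part of these cell types in the level of the enzymes was not tested.

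The macrophage list had means of 0.75 to 2.83 in WT scWAT, 0.35 to 0.79 in Lr11 -/- scWAT and -0.67 to -0.03 in BAT. The endothelial list (4 genes) lay at 1.39 to 2.48 on all arrays. The B lymphocyte list (6 genes) lay at -2.73 to -2.45 in WT scWAT and at -3.65 to -3.59 in Lr11 -/- scWAT. Of its genes 5 or 6 were well above background in WT scWAT and 3 or 4 in Lr11 -/- scWAT. In BAT this list lay at -3.00 to -2.80 in WT and at -3.95 to -3.19 in Lr11 -/-. The epithelial list (4 genes) was high on Lr11 -/- scWAT replicate 1 alone, at 1.78, where the other arrays had means of -5.67 to -2.05. On those arrays 0 to 3 of the 4 genes were well above background. These lists were read beside the enzymes, and their part in the result was not tested.

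Skeletal muscle is also rich in citrate cycle enzymes, and its marker list was high on the 5 arrays given above. Within BAT the mean of the 3 arrays with a high muscle list differed by -0.32 to 0.00 from that of the other 3, with a median over the enzymes of -0.23. This split of BAT is mixed with genotype and array series. In scWAT the difference between the genotypes was 2.68 to 4.65 on the arrays with a low muscle list (WT replicates 1 and 2, Lr11 -/- replicates 2 and 3). It was -0.16 to 0.63 between those with a high one (WT replicate 3, Lr11 -/- replicate 1), which is 1 array against 1 from different array series. With all 5 arrays left out, 8 of 9 enzymes were called in scWAT, with 2 arrays in each genotype. Between the WT tissues 7 of 9 were called, but WT BAT then held only replicate 2, so that this fit assumes 1 array to vary like the other groups. The part of muscle RNA in these values was not tested.

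**Figure D3:**
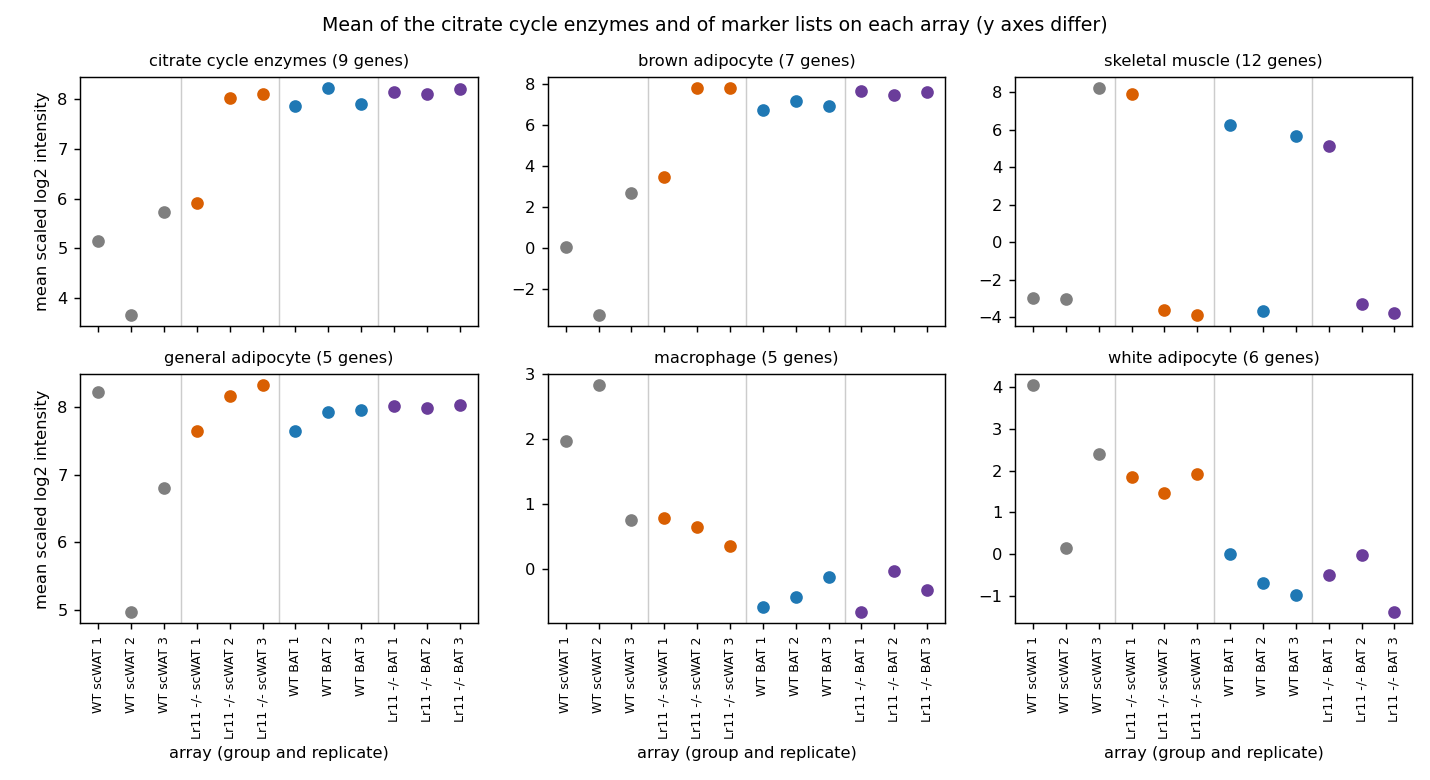
Mean scaled log2 intensity (y axes, which differ) of the 9 enzymes and of 5 marker lists on each array (x axis), coloured by group. The enzymes and the brown adipocyte list are both lowest on WT scWAT replicate 2 and at the level of BAT on Lr11 -/- scWAT replicates 2 and 3, and the muscle list is high on 5 arrays of all 4 groups.

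In BAT the genotypes were close for every enzyme. Lr11 -/- minus WT ranged from 0.05 (Fh1) to 0.34 (Suclg1) with a median of 0.11, and 0 of 9 were called, where 0.0187% of all tested probes were. No enzyme had an unadjusted p under 0.05 in limma, which 2.12% of all probes had. The 95% confidence intervals reached from -1.59 to 1.99 over the 9 enzymes, since the shared spread includes scWAT. Within the series the differences were 0.19 to 0.44 in the first and -0.06 to 0.32 in the second.

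Whether the genotype effect differed between the tissues was tested as an interaction. It was 1.67 (Mdh2) to 2.97 (Suclg1), with adjusted p = 0.40 to 0.45 from limma, and 0 of 9 were called, as were 0% of all tested probes. All 9 had an unadjusted p under 0.05, as did 11% of all probes. Calls in scWAT without calls in BAT thus do not show that the effects differ. Without Lr11 -/- scWAT replicate 1 the interaction was called for 6 of 9 enzymes.

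The tissues of Lr11 -/- mice differed less than those of WT mice in their means. BAT minus scWAT was 0.37 (Mdh2) to 1.08 (Idh3a) with a median of 0.86, and 0 of 9 were called (0.0405% of all tested probes). No enzyme had an unadjusted p under 0.05, which 9% of all probes had. The groups did not overlap for 6 of 9, as for 23.2% of all probes. This difference was 1.53 to 2.99 in the first array series and -0.25 to 0.32 in the second. Lr11 -/- scWAT minus WT BAT was -0.88 (Idh3a) to -0.30 (Mdh2), and 0 of 9 were called (0.0965% of all tested probes). Again no enzyme had an unadjusted p under 0.05, which 8.02% of all probes had, and the groups overlapped for all 9 but did not for 18.9% of all probes. It was -2.55 to -1.30 in the first series and -0.27 to 0.26 in the second.

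Other enzymes of the cycle were read from a list of 9 genes, of which 8 were tested and Ogdhl was not. All 8 were higher in WT BAT than in WT scWAT (15.7% of all tested probes), with a median of 2.64. These were the NADP-dependent Idh2 (2.46), dihydrolipoamide dehydrogenase (Dld, 2.76), the succinyl-CoA ligase subunits Sucla2 (3.92) and Suclg2 (2.43), and the succinate dehydrogenase subunits Sdha (2.87), Sdhb (2.90), Sdhc (2.21) and Sdhd (2.53). In scWAT 3 of 8 rose in Lr11 -/- mice (3.4% of all tested probes), with a median of 2.08 over the 8. These were Sdha by 2.17 (adjusted p = 0.044 from limma), Sdhb by 2.33 (0.043) and Suclg2 by 1.98 (0.036). Sucla2 differed by 2.81 (adjusted p = 0.053 from limma), Dld by 2.18 (0.060), Sdhd by 1.83 (0.050), Sdhc by 1.71 (0.065) and Idh2 by 1.52 (0.14), without passing. In BAT 0 of 8 were called between the genotypes.

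Of 13 genes for the entry of pyruvate, 10 were higher and 1 was lower in WT BAT than in WT scWAT (24.8% of all tested probes in either direction), with a median of 2.41. In scWAT 3 rose and 1 fell in Lr11 -/- mice (5.27% of all tested probes), with a median of 2.06, and these 4 include genes named after their values were seen. The rises were those of Pdha1 (2.51, adjusted p = 0.044 from limma) and Dlat (2.57, 0.045), subunits of pyruvate dehydrogenase, and of Pdp2 (2.56, 0.032), a phosphatase that activates it. Pdk3, a kinase that inhibits pyruvate dehydrogenase, fell by 1.49 in Lr11 -/- scWAT (adjusted p = 0.038 from limma) and differed by -1.77 between WT BAT and WT scWAT (0.0050). The related kinases Pdk4 (3.65, adjusted p = 0.081) and Pdk2 (2.69, 0.077) did not pass between the scWAT genotypes but were higher in WT BAT, by 3.56 (0.046) and 2.75 (0.036). Pdk4 read 2.45, 2.20 and 7.79 in WT scWAT and 7.55, 7.73 and 7.84 in WT BAT, so that the tissues overlapped, and WT scWAT replicate 3, with a high muscle list, stood apart from its group. Pdk2 likewise read 1.07, -0.22 and 4.24 in WT scWAT. Without the 5 arrays with a high muscle list, Pdk4 differed by 5.78 and Pdk2 by 4.03 between the scWAT genotypes (adjusted p = 0.010 and 0.019 from limma).

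A further list held 18 linked genes: enzymes that feed or drain the cycle, cytosolic counterparts of its enzymes, and carriers. Of these, 4 were higher and 1 lower in WT BAT than in WT scWAT, with a median of 0.77. In Lr11 -/- scWAT 1 of them rose, with a median of 1.04. These shares are near the 24.8% and 5.27% of all tested probes, so the counts show nothing particular to the list. The gene that rose was Pck1, which makes phosphoenolpyruvate from oxaloacetate and serves glyceroneogenesis in fat, with 3.77 between the scWAT genotypes (adjusted p = 0.033 from limma) and 4.00 between the WT tissues (0.0056). Me3, a mitochondrial malic enzyme, was higher in WT BAT by 4.22 (adjusted p = 0.016 from limma) and gave 3.53 between the scWAT genotypes (0.065). It read -1.69, -1.15 and 3.32 in WT scWAT, so replicate 3, with a high muscle list, again stood apart. That array lay above Lr11 -/- scWAT replicate 1 (3), and the scWAT genotypes overlapped. The other 3 calls between the WT tissues, named after their values were seen, were Slc25a11 (1.22) and Aco1 (1.1), which were higher, and Me2 (-0.90), which was lower. The exits of citrate to fatty acid synthesis, Slc25a1 and Acly, and the entry through pyruvate carboxylase (Pcx) did not pass in either comparison, with 2.15, 2.43 and 2.28 between the scWAT genotypes (adjusted p = 0.18, 0.17 and 0.12 from limma). In BAT 0 genes of these lists were called between the genotypes.

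The scWAT calls of these 3 lists rested on the same arrays as those of the 9 enzymes. Without WT scWAT replicate 2 the call of Pck1 was the 1 that was made in the 3 lists, and without Lr11 -/- scWAT replicate 2 or 3, or any 1 of the BAT arrays, 0 were made. Without Lr11 -/- scWAT replicate 1, 8 of 8 other cycle enzymes rose, as did 8 of the 13 pyruvate genes and 6 of the 18 linked genes. Omitting WT scWAT replicate 3 gave rises of 7, 9 and 4, and omitting its replicate 1 gave 6, 5 and 5. Between the WT tissues 7 or 8 of the 8 other cycle enzymes were higher with any 1 array left out, but 2 (without WT BAT replicate 2) to 11 of the pyruvate genes and 1 (without WT scWAT replicate 2 or WT BAT replicate 2) to 7 of the linked genes. Without all 5 arrays with a high muscle list, 8, 9 and 4 genes of the 3 lists rose in Lr11 -/- scWAT, and 6, 4 and 2 were higher in WT BAT, there with 1 WT BAT array. In these fits of the scWAT genotypes at most 2 genes of a list fell. The share of all probes called in the same fits is not given here, so a change may not be particular to the lists. The part of skeletal muscle RNA in these calls was not tested.

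**Figure D4:**
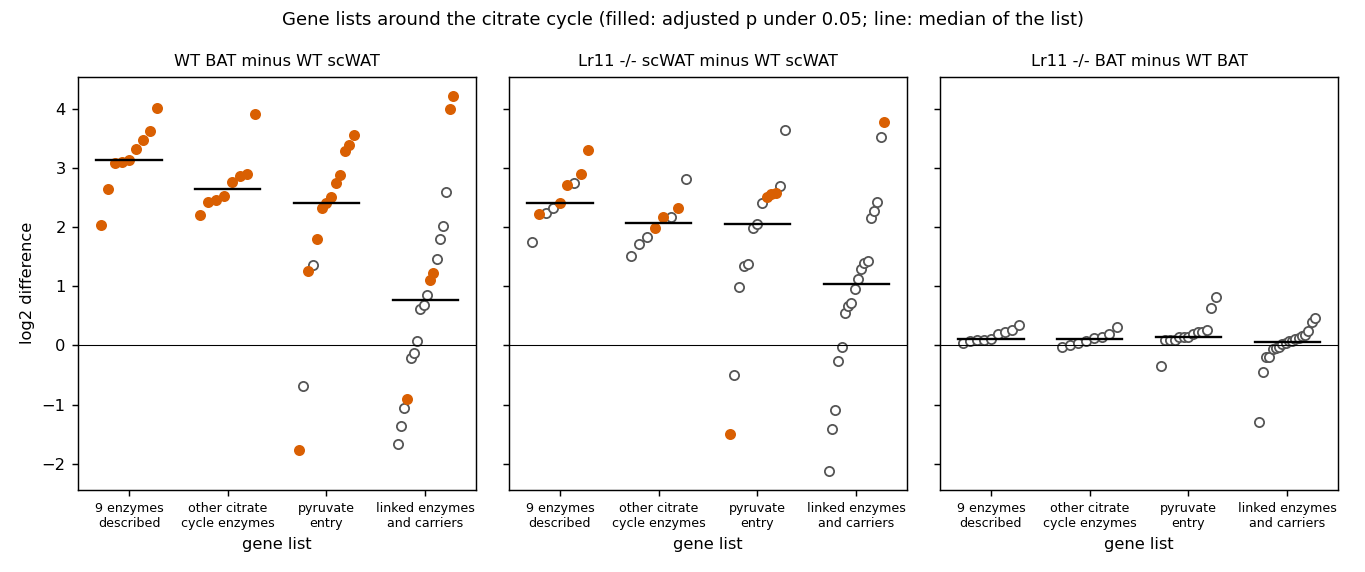
Log2 difference (y axis) of each tested gene in 4 lists (x axis: the 9 enzymes, 8 other cycle enzymes, 13 genes of pyruvate entry and 18 linked enzymes and carriers) in 3 comparisons, filled where the adjusted p was under 0.05, with the median of each list as a line. The medians fall from 3.13 for the 9 enzymes to 0.77 for the linked genes between the WT tissues, and lie near 0 for all lists between the BAT genotypes.

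Over the 12 arrays the 36 pairs of enzymes correlated at Pearson's r = 0.941 to 0.998 (median 0.986). The arrays form clusters of low and high level, so this describes the common order of arrays. Within the 6 BAT arrays alone the pairs ranged from 0.0668 to 0.977 (median 0.741). Among 14701 other genes, the 10 closest to the mean of the 9 enzymes over the 12 arrays were Ndufb8 (r = 0.9986), Immt, Ndufa9, Sdhc, Cox5b, Ppara, Sdha, Cyc1, Sucla2 and Acadvl (0.9966). In all 1406 genes had r of at least 0.9, so likeness of this degree was common on these arrays.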

How the data were processed

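Members and gene lists were chosen with earlier results of these data known. The authors deposited intensity values per spot, made with Agilent Feature Extraction 10.10 (10.10.1.1 in the file headers), with background subtracted, on a linear scale and without scaling of one array to another. The table for the whole series, also deposited, differed from these by 0. Groups followed the source labels, and replicate numbers were given in accession order as names only. Outlier spots (128 to 181 per array) were left out, log2 values of repeat spots were averaged, and each array's 75th percentile (374 to 632) was subtracted. Of 55681 probes, 32121 passed the filter, which asked for signal well above background on every array of some group, and were tested. RefSeq accessions named 27235 probes through gene records of GRCm38.p6, the assembly of the promoter windows. The array number limits the precision.

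The 12 arrays entered 1 fit in limma 3.58.1 (R 4.3.3), and calls are at adjusted p under 0.05. The contrasts were the genotypes in each tissue, their interaction, the tissues in each genotype and Lr11 -/- scWAT against WT BAT. A gene was read from its tested probe with the highest mean. The paper's methods name no test for the arrays. Named genes were the 9 enzymes, the other cycle enzymes, in the pyruvate and linked lists the 2 largest differences between the scWAT genotypes and between the WT tissues plus Pdk4, Pcx, Slc25a1 and Acly, and the 10 most alike genes. Alternatives were other scalings, filters, blocks, weights, variance models, thresholds, probes and sets of arrays. Scripts were tested on simulated data. Figures used Python 3.11.15 and matplotlib 3.10.9. Protein sequences were not used here. Results for some genes of the lists are not reported here.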

Additional observations from a re-analysis of the deposited data

How the results depend on the processing

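No paired analysis was possible because the replicate numbers used here are names given in accession order and the labels hold none. The array series served as a block. Normexp on the mean signals was not run, as those signals were not among the columns used, and normexp on the median signals took its place. That, leaving out the 5 arrays with skeletal muscle genes and leaving out arrays for the other gene lists were chosen after seeing the data. The number of enzymes called between the scWAT genotypes, 5 of 9, was 3 with no scaling between arrays, 0 with no filter on dim probes, 2 with slide as a block, 9 with array weights, 0 with only the arrays of the groups compared, 8 in the second array series alone, 8 without the muscle arrays, 0 at adjusted p under 0.01, and 9 at adjusted p under 0.1 or unadjusted p under 0.05. Leaving out 1 array at a time gave 0 to 9. It was within 1.5 times of 5 in quantile, median and normexp scaling, with the array series as a block, with all probes averaged and in the other settings. The interaction, 0 of 9, was called for 9 with array weights, for 1 in the second series alone and for 9 at unadjusted p under 0.05, and for 0 to 6 with 1 array left out. Between the WT tissues 5 of 9 were called at adjusted p under 0.01 and 7 to 9 with 1 array left out. The other 3 comparisons gave 0 of 9 under all adjusted thresholds and settings run. The share of all probes called in each setting is not given, so these counts do not show whether a change was particular to the enzymes. The causes were not tested.

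Directions turned only for differences that were not called. Between the BAT genotypes Fh1 was -0.02 with quantile normalization, 0.00 with no scaling and -0.06 in the second series. Without the muscle arrays that difference was -0.15 for Cs, -0.13 for Idh3a, -0.12 for Idh3g, -0.03 for Ogdh, -0.18 for Fh1 and -0.14 for Mdh2, and with 1 array left out it was -0.06 (without WT BAT replicate 1) to 0.25 for Cs and -0.09 (likewise) to 0.19 for Fh1. Between the Lr11 -/- tissues Cs and Mdh2 were -0.20 and -0.13 with array weights, -0.25 and -0.21 in the second series and without the muscle arrays, and with 1 array left out -0.31 to 0.92 and -0.18 to 0.65, the lowest without Lr11 -/- scWAT replicate 1. Lr11 -/- scWAT minus WT BAT was 0.27 for Cs, 0.00 for Suclg1 and 0.15 for Mdh2 with array weights, 0.10 for Cs and 0.07 for Mdh2 without the muscle arrays, and 0.26 for Cs, 0.10 for Idh3b, 0.04 for Dlst, 0.15 for Suclg1 and 0.21 for Mdh2 in the second series. With 1 array left out it was -0.83 to 0.41 for Cs, -1.41 to 0.05 for Idh3a, -0.73 to 0.09 for Idh3b, -1.05 to 0.02 for Dlst, -1.19 to 0.18 for Suclg1 and -0.58 to 0.26 for Mdh2, the highest without Lr11 -/- scWAT replicate 1. In the first series alone, with 1 array per group and no test, Idh3a was -0.15 between the scWAT genotypes and -0.59 in the interaction. All 9 differences between the WT tissues kept their direction in every setting.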
